A study of Psychotria grandis and Psychotria costivenia and Psychotria revoluta with 6 samples.

Results

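Leaf transcripts of 4 plants labelled as nickel hyperaccumulators were set, as a single group, against those of 2 plants labelled as a non-accumulator. The members were chosen by the phenotype label alone and make up all 6 libraries of the series, 4 hyperaccumulator and 2 non-accumulator plants. The hyperaccumulators were Psychotria grandis plants 1 and 2, collected at Mil Cumbres on 27 June 2014, and Psychotria costivenia plants 1 and 2, collected at La Coca on 12 June 2014. The non-accumulator was Psychotria revoluta, also from Mil Cumbres, with plant 1 dated 27 July and plant 2 dated 27 June 2014. All were wild shrubs of gallery forest on serpentine soil in Cuba, untreated, and each library held leaf polyA RNA of a single plant. In both P. revoluta tables the header of the count column starts with another species abbreviation than the sample title, and the title was followed.

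Hyperaccumulator plants take up nickel through their roots, move it to the shoot and hold it in their leaves at levels that are toxic to most other plants. In other hyperaccumulating species, uptake is attributed to ZIP-family metal transporters, storage to export into leaf vacuoles by transporters of the ferroportin (IREG) family, and binding to ligands such as citrate. Psychotria, of the coffee family, has accumulating and non-accumulating species growing on the same soils, which is the contrast that the series addresses.

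Reads of all 3 species were counted on contigs, the assembled transcripts of P. grandis. The contigs carry running numbers without a gene name, so neither transporters nor leaf markers could be looked up, and contigs are described by number. Because the phenotype differed between species, the pooled contrast rests on 2 species against 1. Accumulation, other traits of P. revoluta as a species and the match of each species to the P. grandis contigs cannot be told apart. Locality and date cannot be told apart from species in P. costivenia. P. grandis shared the locality with P. revoluta, and the date with its plant 2. P-values of the pooled test rest on the spread between plants within a group, which includes the difference between P. grandis and P. costivenia. They do not measure how species of the same phenotype vary. Library totals ran from 45676087 to 57907913 counts. Of 45143 contigs, 35660 had enough counts to be tested. Levels are given as CPM, counts scaled to a common library total with TMM factors, which align the bulk of contigs between libraries.

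One contig passed the pooled edgeR test at an adjusted p of at most 0.05. Pgra_v1_contig_7222 had 84.9 and 81.4 CPM in P. grandis and 72.6 and 95.3 CPM in P. costivenia, against 0.125 and 0.193 CPM in P. revoluta. The P. revoluta values came from 8 and 10 counts. All 4 hyperaccumulator plants were alike, and the lowest of them lay 377-fold above the higher P. revoluta plant. Its mean was 83.5 ± 9.37 CPM in hyperaccumulators (SD, n = 4) and 0.159 ± 0.0476 CPM in P. revoluta (SD, n = 2). The pooled log2 fold change was 9.02, with an SE of 0.50, and passed the test (adjusted p = 0.0270, edgeR quasi-likelihood). Set against P. revoluta one species at a time, the log2 fold change was 9.02 in P. grandis and 9.03 in P. costivenia, from the same P. revoluta plants. The difference between the hyperaccumulators was -0.01 on the log2 scale (adjusted p = 0.980 by edgeR). The exact two-sided permutation test over the 15 ways to place 4 of 6 plants gave p = 0.0667. This is the smallest p that the design allows, and no overlap of the groups, a condition for naming, largely fixed it in advance. The call held without P. grandis plant 2 (adjusted p = 0.0345 by edgeR). It was lost without P. grandis plant 1 (0.0709), P. costivenia plant 1 (0.201) or plant 2 (0.166), P. revoluta plant 1 (0.773) or plant 2 (0.695), with both P. costivenia plants left out (0.197), with the plant number as a replicate block (0.182) and in limma-voom (0.215), while the log2 fold change stayed between 8.70 and 9.32 over all alternatives.

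By the adjusted threshold this was 1 of 35660 contigs higher in hyperaccumulators (0.0028%) and 0 were lower (edgeR). Where the unadjusted p was at most 0.05, the same test gave 5756 higher (16.1%) and 1609 lower contigs (4.51%). DESeq2 called 5030 higher (14.1%) and 705 lower (1.98%), and limma-voom called 0, with 3527 higher and 3861 lower at an unadjusted p of at most 0.05. The surplus of higher over lower contigs therefore turned with the test used. The median log2 fold change over all tested contigs was 0.23 under TMM and 0.06 under library totals with the same edgeR model, so small fold changes depend on the scaling. It was also 0.04 with species as the factor, 0.13 with a replicate block and 0.0065 in limma-voom, where the model or the test changed.

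**Figure D1:**
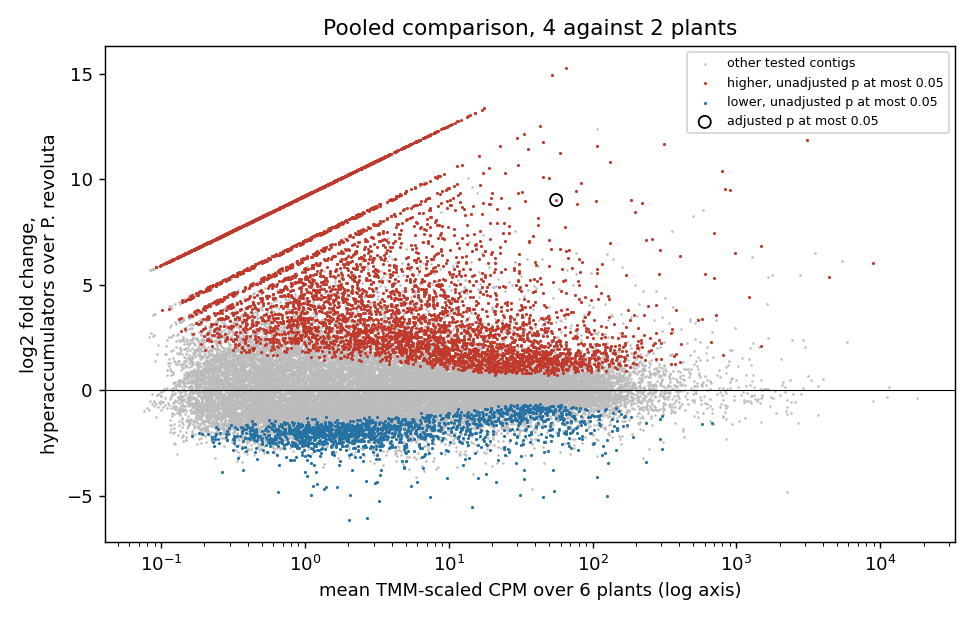
Log2 fold change of hyperaccumulators over P. revoluta (vertical) against the mean TMM-scaled CPM over 6 plants (horizontal, log axis) for the 35660 tested contigs; red and blue mark the 5756 higher and 1609 lower contigs at an unadjusted p of at most 0.05, and the ring marks the 1 contig past the adjusted threshold. The slanting red rows at the upper left are contigs with 0 or few counts in P. revoluta, whose fitted fold follows from their level.

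Among the 5756 higher contigs, 1276 (22.2%) had no reads in either P. revoluta plant, against 1485 of all 35660 tested contigs (4.16%). With these at a lower bound, computed against 3 counts over both P. revoluta plants, the higher contigs had a median log2 fold change of 3.69 and the lower ones of -1.92, against 0.23 over all tested. Of the higher contigs, 4614 (80.2%) differed at least 4-fold, and of the lower ones 732 (45.5%), against 8547 of all 35660 tested contigs (24.0%). Contigs with larger folds reach a small p more readily, so these shares are a description. No contig could take the opposite form. P. grandis plant 1 had reads on 45142 of 45143 contigs, so 0 contigs with reads in P. revoluta lacked them in all hyperaccumulators. The other libraries had reads on 35362 to 38589 contigs. The part of the reference in these counts was not tested.

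Higher contigs were found at all levels, and made up a larger share of contigs under 10 CPM than of more abundant ones. Among contigs with a mean under 1 CPM, 1643 of 9314 were higher and 297 lower at an unadjusted p of at most 0.05, and from 1 to 10 CPM 2506 of 13547 were higher and 789 lower. From 10 to 100 CPM the numbers were 1422 and 477 of 11140, from 100 to 1000 CPM they were 179 and 46 of 1565, and over 1000 CPM they were 6 and 0 of 94. With unread contigs at their bound, the higher contigs had a median log2 fold change of 4.26 under 1 CPM, 4.38 from 1 to 10 CPM, 1.88 from 10 to 100 CPM, 1.98 from 100 to 1000 CPM and 5.72 in the 6 contigs over 1000 CPM. The medians therefore did not run in 1 direction with level.

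The contigs next in order of p had the same shape as the called one, but did not pass (adjusted p = 0.121 by edgeR for each of the 9 named in this and the next paragraph). Pgra_v1_contig_2798 had 129 and 104 CPM in P. grandis and 91.5 and 175 CPM in P. costivenia, against 0.204 and 0.0578 CPM in P. revoluta, with a pooled log2 fold change of 9.85 (SE 0.86). Pgra_v1_contig_9455 had 40.7 and 41.4 CPM in P. grandis and 91.4 and 95.8 CPM in P. costivenia, against 0.0313 and 0 CPM in P. revoluta. With 2 counts in P. revoluta, the ratio of its means was 3898, with a 95% exact Poisson interval of 1079 to 32186. The plants of each hyperaccumulator matched closely here, and P. costivenia was the higher. Pgra_v1_contig_5948 had 25.1 and 8.47 CPM in P. grandis and 19.5 and 18.2 CPM in P. costivenia, against 0.0470 and 0.0193 CPM in P. revoluta, with a pooled log2 fold change of 8.94 (SE 0.90). Pgra_v1_contig_13504 had 11.3 and 7.22 CPM in P. grandis and 7.79 and 8.87 CPM in P. costivenia, and had 0 counts in P. revoluta. Its hyperaccumulator mean of 8.80 CPM was at least 340-fold higher, against 3 counts over both P. revoluta plants. Every hyperaccumulator plant was above both P. revoluta plants, as the choice of these contigs required, and the margin was wide in each. Intervals and bounds cover counting error only.

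In the opposite direction, folds were smaller. Pgra_v1_contig_28042 had 1.67 and 4.10 CPM in P. grandis and 2.15 and 1.71 CPM in P. costivenia, against 49.0 and 36.5 CPM in P. revoluta, with a pooled log2 fold change of -4.15 (SE 0.49). Pgra_v1_contig_29401 had 4.11 and 6.09 CPM in P. grandis and 5.20 and 6.53 CPM in P. costivenia, against 24.4 and 28.9 CPM in P. revoluta, with a pooled log2 fold change of -2.28 (SE 0.36). Pgra_v1_contig_2953 had 1.71 and 0.566 CPM in P. grandis and 1.501 and 1.12 CPM in P. costivenia, against 13.6 and 11.7 CPM in P. revoluta, with a pooled log2 fold change of -3.37 (SE 0.58). These 3 contigs were well read in every plant, and no overlap between groups was a condition for their choice. Pgra_v1_contig_8393 had 29.6 and 37.3 CPM in P. grandis and 32.2 and 26.2 CPM in P. costivenia, against 97.0 and 86.5 CPM in P. revoluta, with a pooled log2 fold change of -1.55 (SE 0.28). Pgra_v1_contig_33654 had 2.04 and 0.897 CPM in P. grandis and 3.10 and 2.85 CPM in P. costivenia, against 17.8 and 17.2 CPM in P. revoluta, with a pooled log2 fold change of -2.98 (SE 0.58). The nearest plants of the groups were 2.32-fold apart for Pgra_v1_contig_8393 and 5.56-fold apart for Pgra_v1_contig_33654.

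**Figure D2:**
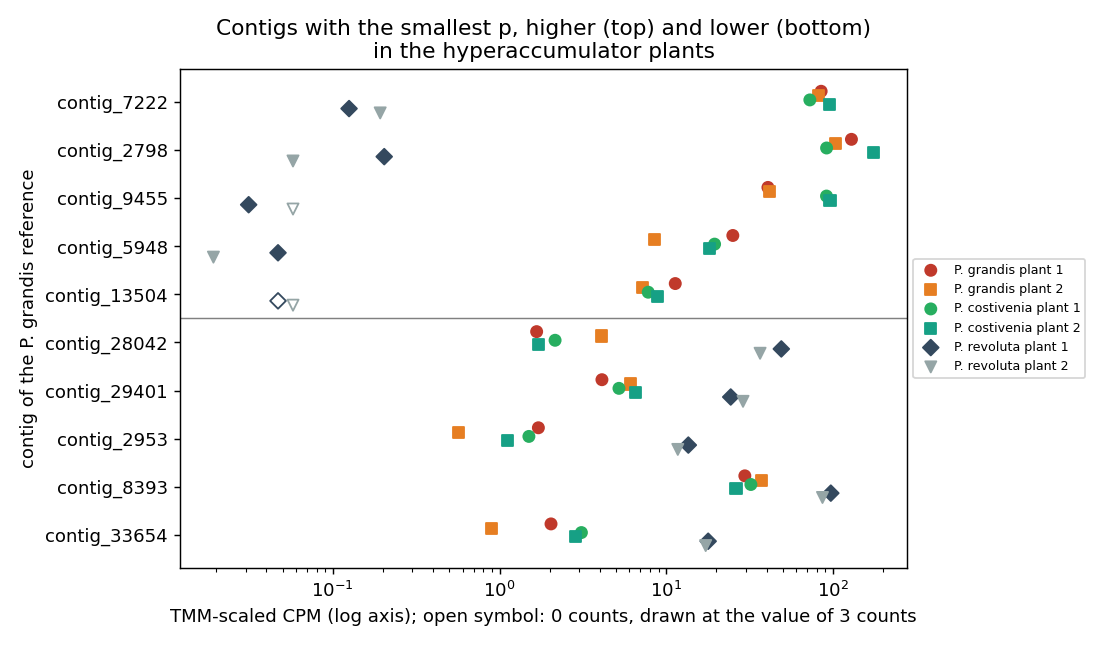
TMM-scaled CPM in each plant (horizontal, log axis; open symbols are 0 counts drawn at the value of 3 counts) for the 5 higher and 5 lower contigs with the smallest p among those with a mean of at least 5 CPM and no overlap of the groups. The hyperaccumulator plants of Pgra_v1_contig_7222 lie between 72.6 and 95.3 CPM, and both P. revoluta plants lie under 0.2 CPM.

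Of the contigs not named above and with at least 4 counts over both P. revoluta plants, those with the largest folds were uneven within hyperaccumulators. These and the abundant contigs below were taken at an unadjusted p of at most 0.05, a choice made after the values were seen, and none passed the adjusted test (adjusted p from 0.121 to 0.224 by edgeR). Pgra_v1_contig_58 had 17851 and 111 CPM in P. grandis and 477 and 7.44 CPM in P. costivenia, against 2.07 and 0.366 CPM in P. revoluta, with a pooled log2 fold change of 11.88 (SE 4.40). Its P. grandis plant 1 lay far above all others, and its log2 fold change was 7.34 without that plant. Pgra_v1_contig_427 had the same order among P. grandis, at 1668 and 36.7 CPM, with 145 and 29.1 CPM in P. costivenia and 0.125 and 0.154 CPM in P. revoluta. Pgra_v1_contig_5025 was higher in P. grandis, at 176 and 155 CPM, than in P. costivenia, at 11.8 and 11.0 CPM, against 0.0626 and 0 CPM in P. revoluta. Pgra_v1_contig_417 had 251 and 3.84 CPM in P. grandis and 350 and 193 CPM in P. costivenia, against 0.0470 and 0.173 CPM in P. revoluta. No overlap of the groups was a condition for this set, and plants of a single hyperaccumulator species differed many-fold in 3 of the 4. Pgra_v1_contig_4646 was also in this set, at 20.3 and 80.6 CPM in P. grandis and 283 and 262 CPM in P. costivenia, against 0.0783 and 0.0193 CPM in P. revoluta.

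On the lower side, 3 contigs shared a single profile. Pgra_v1_contig_20231 had 10.9 and 32.1 CPM in P. grandis and 0.823 and 0.0234 CPM in P. costivenia, against 499.9 and 216 CPM in P. revoluta. Pgra_v1_contig_21576 had 1.20 and 9.33 CPM in P. grandis and 0.654 and 0.0234 CPM in P. costivenia, against 122 and 54.5 CPM in P. revoluta. Pgra_v1_contig_24395 had 2.75 and 18.9 CPM in P. grandis and 0.508 and 0.117 CPM in P. costivenia, against 212 and 89.5 CPM in P. revoluta. All 3 ran in the same order over the 6 plants, with P. costivenia lowest, and whether they are pieces of a single transcript was not tested. Pgra_v1_contig_38841 had log2 fold change -5.08 (SE 1.10), at 0.285 and 1.79 CPM in P. grandis and 0.145 and 0.234 CPM in P. costivenia, against 26.4 and 15.5 CPM in P. revoluta. Pgra_v1_contig_35085 had 1.28 and 0.858 CPM in P. grandis and 0.315 and 0.0936 CPM in P. costivenia, against 15.03 and 15.02 CPM in P. revoluta.

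Among the abundant higher contigs not already named, P. costivenia was the higher hyperaccumulator in 4 of 5. This set left out Pgra_v1_contig_58, named by its fold, with a mean of 4612 CPM in hyperaccumulators and P. grandis the higher. Pgra_v1_contig_27 had 17381 and 3627 CPM in P. grandis and 4551 and 561 CPM in P. costivenia, against 199 and 114 CPM in P. revoluta, with a pooled log2 fold change of 5.38 (SE 1.73). Pgra_v1_contig_45 had 1118 and 516 CPM in P. grandis and 2946 and 2545 CPM in P. costivenia, against 83.2 and 82.9 CPM in P. revoluta, with a pooled log2 fold change of 4.42 (SE 1.05). Pgra_v1_contig_1389 had 1447 and 1086 CPM in P. grandis and 2013 and 3476 CPM in P. costivenia, against 430 and 499.6 CPM in P. revoluta. The other 2 were high in P. costivenia and closer to P. revoluta in P. grandis. Pgra_v1_contig_2919 had 66.5 and 37.5 CPM in P. grandis and 4300 and 4514 CPM in P. costivenia, against 25.1 and 14.4 CPM in P. revoluta. Pgra_v1_contig_4497 had 118 and 71.5 CPM in P. grandis and 2864 and 2821 CPM in P. costivenia, against 19.8 and 12.6 CPM in P. revoluta. P. grandis minus P. costivenia was -6.41 and -4.91 on the log2 scale in these contigs (adjusted p = 0.0396 and 0.0398 by edgeR), so their pooled folds describe mainly P. costivenia.

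The abundant lower contigs had milder folds, and P. grandis plant 2 was the hyperaccumulator plant nearest to P. revoluta in all 5. Pgra_v1_contig_3447 had 334 and 546 CPM in P. grandis and 371 and 396 CPM in P. costivenia, against 1291 and 1129 CPM in P. revoluta. Pgra_v1_contig_2912 had 301 and 593 CPM in P. grandis and 167 and 307 CPM in P. costivenia, against 950.4 and 1153 CPM in P. revoluta. Pgra_v1_contig_17579 had 46.6 and 279.6 CPM in P. grandis and 30.9 and 49.4 CPM in P. costivenia, against 809.6 and 592 CPM in P. revoluta. The first of these was even among hyperaccumulators, and the last was not. Pgra_v1_contig_5788 had 73.9 and 293 CPM in P. grandis and 61.5 and 80.7 CPM in P. costivenia, against 600.3 and 654 CPM in P. revoluta. Pgra_v1_contig_8745 had 29.1 and 170.2 CPM in P. grandis and 14.7 and 8.89 CPM in P. costivenia, against 568 and 622 CPM in P. revoluta. Log2 fold changes ran from -3.42 for Pgra_v1_contig_8745 to -1.55 for Pgra_v1_contig_3447.

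Contigs unread in P. revoluta yet read by at least 10 counts in every hyperaccumulator plant numbered 497 of 35660 tested. The pair with the highest level in its lowest hyperaccumulator plant was described without a fitted fold. Pgra_v1_contig_3002 had 115 and 18.1 CPM in P. grandis and 86.7 and 91.1 CPM in P. costivenia. Its hyperaccumulator mean of 77.9 CPM was at least 3005-fold higher than P. revoluta. Pgra_v1_contig_5334 had 63.8 and 20.5 CPM in P. grandis and 12.3 and 9.38 CPM in P. costivenia. Its hyperaccumulator mean of 26.5 CPM was at least 1023-fold higher. Both bounds are against 3 counts over both P. revoluta plants, and they hold for the group mean, not for each plant.

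Plant by plant, the whole hyperaccumulator group often lay on a single side of P. revoluta, mostly by gaps that were small on CPM + 1. All 4 plants lay above both P. revoluta plants in 8226 contigs (23.1%) and below both in 7244 (20.3%). Under library totals in place of TMM the numbers were 7566 and 7865, so the balance turned with the scaling. In 5193 contigs 3 of the 4 lay above both, and in 5180 contigs 3 lay below both. In 12715 contigs (35.7%), some hyperaccumulator plants lay above and others below both P. revoluta plants. Where groups did not overlap, the gap between their nearest plants on CPM + 1 had a median of 1.22-fold for higher and 1.20-fold for lower contigs. Gaps of at least 2-fold were found in 963 higher (11.7% of the 8226) and 228 lower contigs (3.15% of the 7244). Of these, 136 higher and 64 lower contigs also had the plants of each group within 2-fold of each other. Over all 35660 tested contigs, hyperaccumulator plants were that even in 14357 (40.3%) and P. revoluta plants in 34862 (97.8%). Among the 26346 contigs with a mean of at least 1 CPM, the shares were 29.0% and 97.2%. On CPM + 0.1, gaps of at least 2-fold numbered 2726 higher and 631 lower, so gap size depends on the added value. The 8226 higher contigs took 34.7% and 15.1% of the counts in P. grandis and 25.0% and 23.9% in P. costivenia, against 8.69% and 8.59% in P. revoluta. The 7244 lower contigs took 8.03% and 19.2% of the counts in P. grandis and 9.33% and 9.64% in P. costivenia, against 28.0% and 26.8% in P. revoluta. The direction of these shares follows from how the contigs were picked, and only their size is described.

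**Figure D3:**
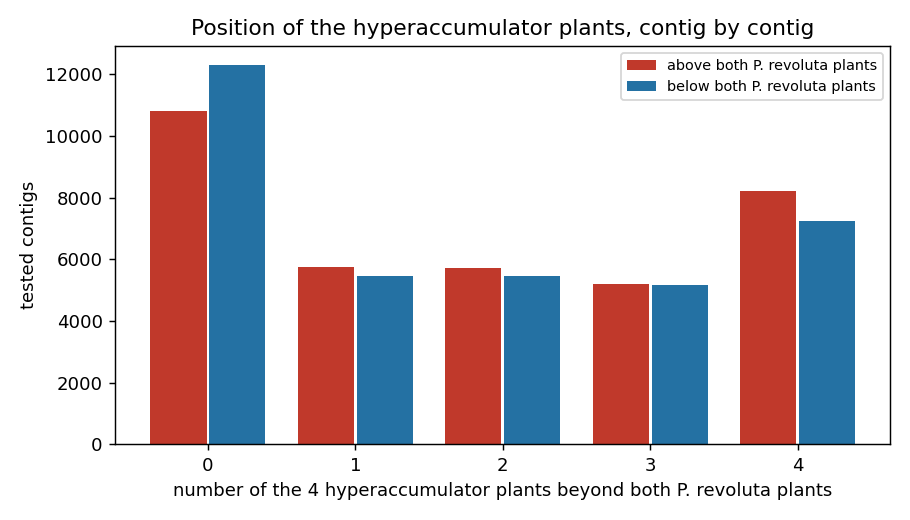
Number of tested contigs (vertical) by how many of the 4 hyperaccumulator plants lie above (red) or below (blue) both P. revoluta plants (horizontal). All 4 plants lie above in 8226 contigs and below in 7244, more than the 5193 and 5180 with 3 plants.

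P. grandis plant 2 stood closest to P. revoluta. It was the hyperaccumulator plant nearest to P. revoluta in 5418 of the 8226 higher contigs (65.9%) and in 5476 of the 7244 lower ones (75.6%). It lay at least 4-fold above both P. revoluta plants, on CPM + 1, in 462 contigs and at least 4-fold below in 37. P. grandis plant 1 did so in 3085 and 2091 contigs, P. costivenia plant 1 in 2269 and 1617, and P. costivenia plant 2 in 2324 and 1574. The median distance from the P. revoluta mean was 0.30 on the log2 scale for P. grandis plant 2, 0.86 for P. grandis plant 1, and 0.71 and 0.70 for the P. costivenia plants. Without P. grandis plant 2, edgeR called 2513 contigs higher and 1729 lower, and without P. grandis plant 1 it called 0 in either direction, with 6021 higher and 1786 lower at an unadjusted p of at most 0.05. Without P. costivenia plant 1 or plant 2 it called 0, and the lower contigs at that unadjusted threshold numbered 586 and 599. Without P. revoluta plant 1 or plant 2, which left 1 plant assumed to vary like the hyperaccumulators, it called 0, with 2246 or 2386 higher and 149 or 285 lower.

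The phenotype contrast was a little larger than the contrast between the hyperaccumulators. The sum of squares of log2(CPM + 1) over the 6 plants divides into 5 single contrasts. Hyperaccumulators against P. revoluta held 38.2% of it, P. grandis against P. costivenia 33.8%, and the plants within P. grandis, P. costivenia and P. revoluta 21.6%, 4.56% and 1.78%. The phenotype share exceeded the share between hyperaccumulators in 19442 contigs (54.5%). In the 94 contigs over 1000 CPM the phenotype held 29.7%, P. grandis against P. costivenia 35.1% and the P. grandis plants 29.6%. The plants' spread in excess of counting noise was taken as edgeR's common coefficient of biological variation. It was 80.5% in the pooled model and 60.3% with species as the factor. By species it was 83.8% for the P. grandis, 46.9% for the P. costivenia and 29.7% for the P. revoluta plants.

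**Figure D4:**
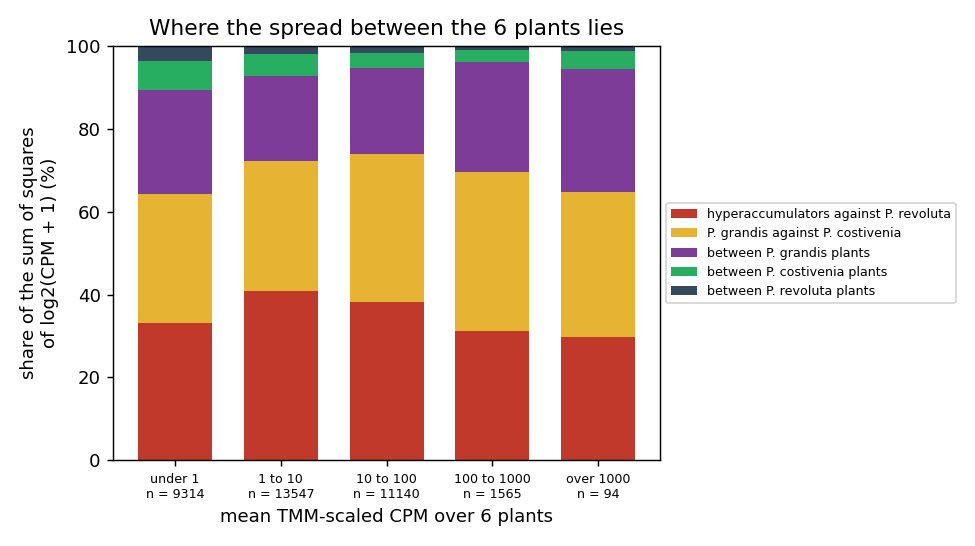
Share of the sum of squares of log2(CPM + 1) (vertical, %) by mean TMM-scaled CPM (horizontal, n contigs per class), divided into the contrast of hyperaccumulators with P. revoluta, that of P. grandis with P. costivenia, and the plants within each species. The phenotype share is 40.9% from 1 to 10 CPM and 29.7% over 1000 CPM.

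A test of P. grandis against P. costivenia, in a model with species as the factor, asked how uniform the pooled group was. At an adjusted p of at most 0.05, edgeR called 956 of 35660 contigs (2.68%), 652 of them with P. grandis the higher and 304 with P. costivenia the higher. The count depended on the test: DESeq2 called 7949 (22.3%), and edgeR had 9334 (26.2%) with an unadjusted p no higher than 0.05. Of the contigs higher in hyperaccumulators at an unadjusted p of at most 0.05, 100 (1.74%) differed between the hyperaccumulators by edgeR, 92 of them with P. costivenia the higher, and DESeq2 called 1072 (18.6%). Of the lower contigs, edgeR called 7 (0.435%), all with P. grandis the higher, and DESeq2 called 143 (8.89%). A pooled fit favours contigs that are even within the group, and these shares are given as a description only. The lower contigs had median log2 fold changes against the shared P. revoluta plants of -1.57 in P. grandis and -2.39 in P. costivenia, against 0.13 and -0.0010 over all tested.

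The number of contigs called differed with the model and with the species included, and the reason was not tested. With species as the factor, the difference between P. grandis and P. costivenia no longer counts as spread. The mean of both hyperaccumulators against P. revoluta then gave 1593 contigs higher and 734 lower of 35660 tested (edgeR). With P. grandis left out, which makes the contrast P. costivenia alone against P. revoluta, there were 9603 higher and 8842 lower of 32733 tested. With P. costivenia left out there were 0 in either direction of 34172 tested. An unadjusted p of at most 0.05 was reached there by 4928 higher and 476 lower ones (edgeR).

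**Figure D5:**
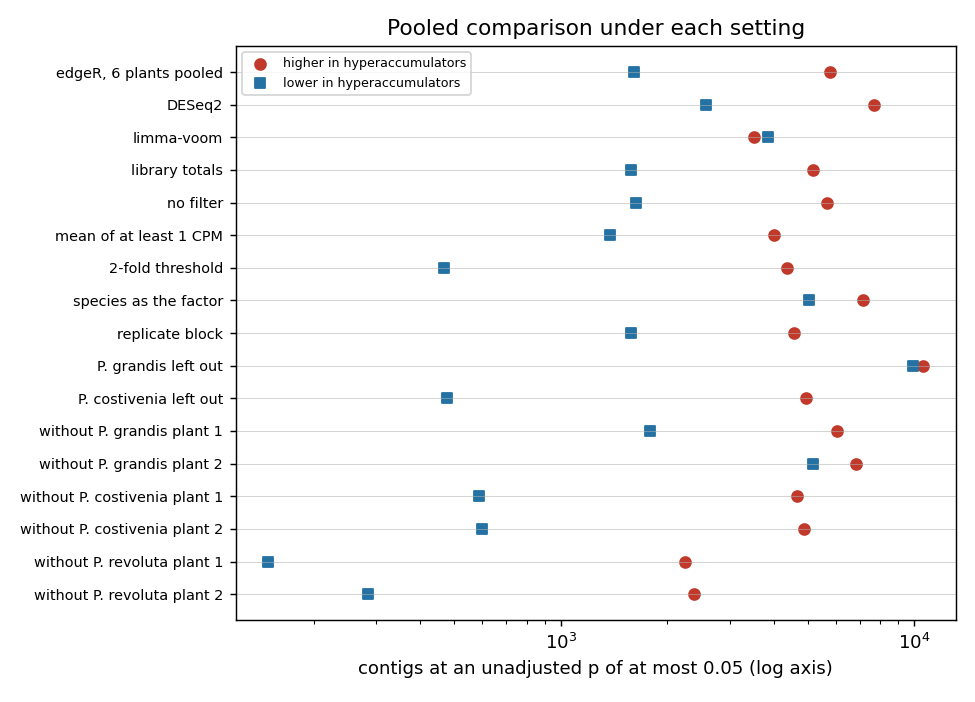
Contigs at an unadjusted p of at most 0.05 (horizontal, log axis), higher (red circles) and lower (blue squares) in hyperaccumulators, for the pooled edgeR test and each alternative (rows). The pooled test has 5756 higher and 1609 lower contigs, limma-voom has 3527 and 3861, and with P. grandis left out there are 10555 and 9911.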

How the data were processed

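Leaf polyA RNA of 6 plants was sequenced as paired-end reads, per the series design text. Each deposited table holds the raw counts of 1 plant by contig, per the file headers. The authors counted all reads on the P. grandis transcriptome, assembled de novo, per the series design text. The assembler, aligner, counting tool, strand setting and treatment of reads matching several contigs were not given in the sources used here; values of near-identical contigs are uncertain.

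The analysis used edgeR 4.0.16 in R 4.3.3: filterByExpr with phenotype as the group (minimum count 10, minimum total 15; 79.0% of contigs and 99.9% of counts kept), TMM, and a robust quasi-likelihood fit of phenotype to all 6 libraries, with 4 residual and 2.53 prior degrees of freedom. Tests were two-sided, with Benjamini-Hochberg adjustment over all 35660 contigs at 0.05. DESeq2 1.42.0 and limma 3.58.1 (voom) were alternatives. The SE is the absolute log2 fold change over the square root of F. The script was tested on simulated data.

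Contigs were named by adjusted p, no overlap of the groups and a mean of at least 5 CPM. As 1 passed, lists were filled to 5 per direction by unadjusted p, as the rule provided. The sets by largest fold (at least 4 counts over the lower group) and highest level were added at an unadjusted p of at most 0.05. Both kept the conditions of no overlap and of mean level, and left out contigs already named. Members and lists were chosen with earlier results of these data known. A count of 0 allows 3 counts, 0.0470 to 0.0726 CPM per library. Plants of a species differed by a chi-square per contig of 51.8 to 632, so no library was counted as a copy.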

Additional observations from a re-analysis of the deposited data

Results flagged for a closer look

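Among the 32 named contigs, 8 had a hyperaccumulator plant far from the other 3 on CPM (Dixon's gap over range, past its 95% critical value for 4 values). That critical value is for normal values of a single population. Here CPM of both species were pooled, in contigs picked by p, fold or level, so the number is a description. Ratios on log values, the scale of the folds, are not given. The gap ratio was 0.974 for Pgra_v1_contig_58 and 0.929 for Pgra_v1_contig_427, where P. grandis plant 1 was far above the others. It was 0.915 for Pgra_v1_contig_38841, 0.873 for Pgra_v1_contig_21576, 0.860 for Pgra_v1_contig_24395, 0.926 for Pgra_v1_contig_17579, 0.917 for Pgra_v1_contig_5788 and 0.875 for Pgra_v1_contig_8745. In these 6, all lower in hyperaccumulators, P. grandis plant 2 was the plant apart, on the side of P. revoluta. DESeq2 gave no adjusted p for 5 of the 8 (Pgra_v1_contig_58, Pgra_v1_contig_427, Pgra_v1_contig_21576, Pgra_v1_contig_24395 and Pgra_v1_contig_8745).

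The effect against P. revoluta differed between the hyperaccumulators in 2 named contigs. P. grandis minus P. costivenia was -6.41 on the log2 scale for Pgra_v1_contig_2919 and -4.91 for Pgra_v1_contig_4497, both past the adjusted threshold of edgeR.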

How the results depend on the processing

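Of 1 contig called higher and 0 lower, edgeR kept 1 and 0 with library totals, without the filter, at a mean of at least 1 CPM and against a 2-fold change. DESeq2 gave 5030 and 705, species as the factor 1593 and 734, P. grandis left out 9603 and 8842, and limma-voom and P. costivenia left out 0 and 0. Leaving out 1 plant gave 0 to 2513 higher and 0 to 1729 lower, the high ends without P. grandis plant 2.

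Where the unadjusted p was at most 0.05, there were 5756 higher and 1609 lower contigs. DESeq2 gave 2566 lower, limma-voom 3527 higher and 3861 lower, a 2-fold threshold 468 lower, species as the factor 5024 lower, P. grandis left out 10555 higher and 9911 lower, and P. costivenia left out 476 lower. Leaving out 1 plant gave 2246 to 6841 higher and 149 to 5169 lower. Contigs without overlap at least 2-fold apart numbered 963 higher and 228 lower on CPM + 1 and 2726 and 631 on CPM + 0.1. At least 4-fold apart, they numbered 158 and 20, and 1069 and 43. Under library totals the groups did not overlap in 7566 higher and 7865 lower contigs, which turned the balance.

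Plant numbers were shared between species as names only: deviations of same-numbered plants correlated at -0.04 to 0.12. With the number as a replicate block, 0 contigs passed (4577 higher and 1575 lower at an unadjusted p of at most 0.05). Over 512 fits of named contigs, 0 reversed direction, 8 lost the call (all for Pgra_v1_contig_7222) and 99 gained it, with DESeq2, species as the factor, P. grandis left out or P. grandis plant 2 left out. The causes were not tested. Named contigs were chosen without overlap of the groups, which largely fixed in advance that none would reverse direction. Depth limits contigs near the value of 3 counts.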
